A study of Danio rerio
Oryzias latipes and Oryzias latipes and Danio rerio with 7 samples.

Results

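Bone morphogenetic proteins (Bmp), growth differentiation factors (Gdf) and activins are secreted signals of the Tgf-beta superfamily. They bind pairs of type I and type II receptor kinases, which phosphorylate Smad proteins that enter the nucleus with a common Smad. Secreted antagonists such as noggin, gremlin and follistatin hold the ligands away from their receptors. In fish embryos these signals set the dorsal and ventral sides, and later they pattern the dorsal retina, the skeleton and the vessels. The genes described here were taken by symbol, as every gene record whose name begins with Bmp and a number, Bmpr, Gdf and a number, Inhb, Smad and a number, Acvr, Nog and a number, Grem and a number, or Fst. On the zebrafish genome 73 of 32264 records met that rule, and on the medaka genome 57 of 20459. They carry 69 and 54 different symbols, of which 51 are in both genomes. The rule also takes in follistatin-like genes, the Bmp1 proteases and bmp2k, a kinase named after Bmp2, which are neither ligands nor receptors.

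The libraries came from whole embryos of 3 kinds. There were 2 of medaka of the Cab strain, 2 of zebrafish of the AB strain, and 3 of chimeras labelled Cab/AB and called zebraka. In a chimera, zebrafish blastomeres had been put into a medaka blastula of the same age. Embryos were raised at 28 °C, zebrafish in E3 medium and both medaka and chimeras in ERM. The stage is stated as embryo, without an age. The labels name neither the number of embryos per library nor separate clutches, so p-values measure only the spread between these libraries, which may be technical. Each library was read against both genomes, and the unit was FPKM, a fragment count divided by transcript length and by the total mapped to that genome. Zebrafish-genome values of the chimeras are called donor values here, and their medaka-genome values host values.

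The fragments implied by the deposited confidence limits numbered 21866655 and 28574227 in the zebrafish libraries on the zebrafish genome, against 764000 to 941708 in the chimeras. At equal FPKM a zebrafish library held 33.9 times the fragments of a chimera, so a donor gene of low level rests on few fragments or on none. On the medaka genome the chimeras were the deeper group: they held 27167734 to 30983952 fragments and the medaka embryos 18330408 and 21491640, so at equal FPKM a chimera held 1.44 times the fragments. The makeup of the donor transcripts also differed from that of a whole zebrafish embryo. Summed donor FPKM of retina markers ran from 1396 to 1458 in the chimeras against 230 to 255 in zebrafish embryos, with 20 of 21 marker records higher in the mean. Muscle markers summed to 233 to 254 against 13847 to 21729, notochord markers to 3.80 to 5.74 against 374 to 400, and epidermis markers to 16.4 to 18.1 against 4373 to 12260. Lens markers summed to 125 to 201 against 771 to 1155. All 7 blood marker records were at 0 in the chimeras, and 17 of 19 Hox records were. In whole-embryo RNA, fewer cells of a type and less RNA per cell cannot be told apart. These marker values moved with every donor result below, and their part in those results was not tested.

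Donor transcripts of this signalling family were lower than in zebrafish embryos for most tested Bmp and Gdf ligands. They were higher for the activin chain inhbb, which became the leading ligand. The other activin chains were of low level. Of these, inhbab was called higher from a zebrafish mean of 0.103 FPKM, on 21.6 chimera fragments. The lower calls of inhbaa and INHBE rest on about 3 and 1 chimera fragments. Genes were tested if their mean was at least 1 FPKM in either group and below 1 FPKM in the medaka libraries on the zebrafish genome. Of the 73 records 50 were tested, 19 were too low and 4 were set aside because medaka RNA also mapped to them. Most tested Bmp and Gdf ligands met the minimum level only through the zebrafish libraries, so their count leans toward decreases. The activin chains inhbaa and INHBE also met it only through the zebrafish libraries, and inhbab only through the chimeras. The filter favours the direction of each of these calls, which are given as a description. By limma on log2(FPKM + 1), with Benjamini-Hochberg adjustment over all tested genes, 6 of the 50 rose in the chimeras (12.0%) and 19 fell (38.0%). Over all 16628 tested genes 10.1% rose and 33.2% fell, so the family as a whole stood near the background. The libraries of both groups did not overlap for 38 of the 50 members (76.0%), against 65.4% of all tested genes. The median log2 difference of the members was -0.40, or -0.30 with genes at 0 in every chimera set to the level of 3 fragments per library. That of all tested genes was -0.26. Quantile normalization moved the latter to 0.34 and the split to 13 members higher and 9 lower of 46 tested, 28.3% and 19.6%, against 33.4% and 21.2% of all genes. With zebrafish replicate 1 left out, 3 members rose and 11 fell. With zebrafish replicate 2 left out, 11 fell. In those fits the remaining zebrafish library is assumed to vary as the chimeras did.

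**Figure D1:**
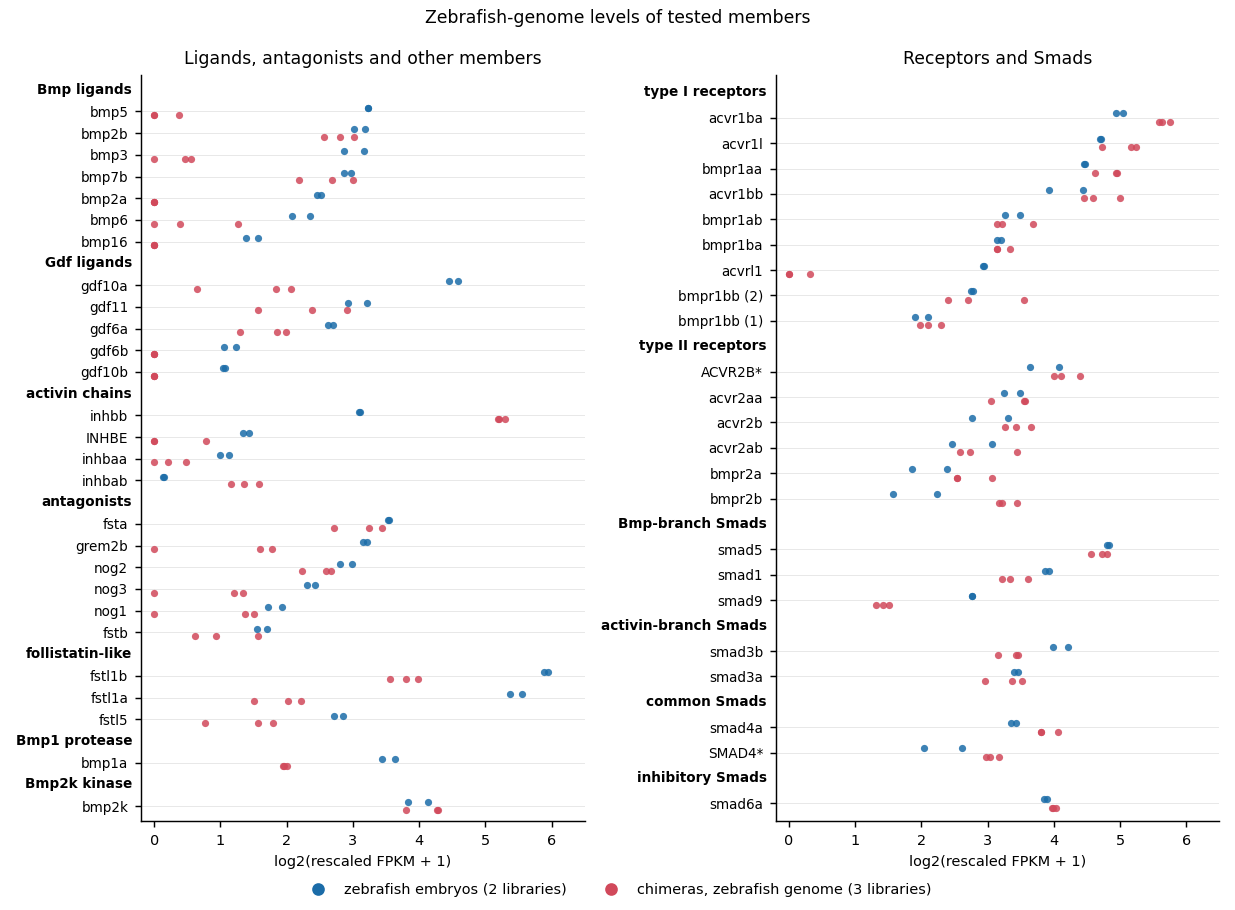
Level of each tested member on the zebrafish genome, as log2(rescaled FPKM + 1), in 2 zebrafish (blue) and 3 chimera (red) libraries, grouped by role; each point is 1 library, an asterisk stands for records marked "1 of many", and bracketed numbers tell apart records that share a symbol. Most ligands lie to the left in the chimeras, whereas inhbb lies to the right at 35.5 to 38.4 FPKM against 7.51 and 7.61.

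Among the ligands, inhbb encodes the beta-B chain of activin. It lies on zebrafish chromosome 9 at 37157499 to 37165084 (danRer10). Its level was 7.61 and 7.51 FPKM in the zebrafish libraries and 38.4, 35.5 and 36.0 FPKM in the chimeras. Every chimera was above both zebrafish libraries, and the chimeras lay close to one another. The ratio of means was 4.85, and the log2 difference was 2.14 ± 0.10 (SE; limma, adjusted p = 9.27e-05). The call was kept in all 16 alternatives. The chimera values rest on 518 fragments in all, against 131 at the zebrafish level. By level, inhbb stood 24th of the 50 tested members in zebrafish embryos and 2nd in the chimeras.

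The other activin chains were of low level. The beta-A chain inhbab measured 0.109 and 0.0971 FPKM in the zebrafish libraries and 1.99, 1.24 and 1.56 in the chimeras, a ratio of 15.5 that rests on 21.6 chimera fragments. With a zebrafish mean of 0.103 FPKM it passed the minimum level only through the chimeras. It rose by 1.22 ± 0.15 on the log2(FPKM + 1) scale (limma, adjusted p = 0.00297), and the call was lost without zebrafish replicate 1 or 2 (adjusted p = 0.0553 and 0.0551). Its duplicate inhbaa went the other way, from 1.19 and 0.988 FPKM to 0.157, 0.391 and 0, a log2 difference of -0.83 (adjusted p = 0.0138). INHBE, a beta-E chain, was at 1.71 and 1.54 FPKM in zebrafish embryos and at 0, 0.710 and 0 in the chimeras (log2 difference -1.13, adjusted p = 0.0285). These lower calls rest on about 3 and 1 chimera fragments, of genes that passed the minimum level only through the zebrafish libraries. Both were lost without zebrafish replicate 1 or 2 (adjusted p 0.222 and 0.174 for inhbaa, 0.304 and 0.268 for INHBE), and that of INHBE also without chimera replicate 1 or 3 (0.0745 and 0.0741). With a pseudocount of 0.1 in place of 1 both were lost too (0.0669 and 0.0899).

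All 12 tested Bmp and Gdf ligands had a lower mean in the chimeras, and 9 of them passed the test. Of all tested genes 59.5% had a lower mean there and 33.2% passed as lower. Under quantile normalization 9 were tested, 4 fell, and bmp2b and bmp7b turned to small positive differences of 0.17 and 0.22 that were not called. The median log2 difference of the 12 was -1.31, or -0.91 with genes at 0 in every chimera at the floor of 3 fragments per library. A tested low gene enters the comparison through its zebrafish level, so such a count leans toward decreases.

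Of these ligands, bmp5 on chromosome 13 showed the largest decrease. It measured 8.39 and 8.41 FPKM in zebrafish embryos and 0, 0 and 0.296 FPKM in the chimeras (log2 difference -3.11 ± 0.18, limma, adjusted p = 0.000179). The chimera signal is 1 fragment, where the zebrafish level would have given 103. The ligand gdf10a, a relative of Bmp3, fell from 23.0 and 20.9 FPKM to 0.571, 3.21 and 2.57 FPKM (log2 difference -3.00 ± 0.47, adjusted p = 0.00639). It was the most abundant ligand in zebrafish embryos, and each chimera was far below both of them. Its call was lost without zebrafish replicate 1 or 2 (adjusted p = 0.113 and 0.1004). For bmp3, which acts against other Bmps in several vertebrates, zebrafish embryos held 6.28 and 8.03 FPKM and the chimeras 0.381, 0.475 and 0.00 (log2 difference -2.68 ± 0.24, adjusted p = 0.000815). About 1 chimera fragment was behind these values against 46.8 at the zebrafish level.

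Several further ligands were at 0 in every chimera: bmp2a (4.76 and 4.48 FPKM in zebrafish embryos) was at least 3.70-fold lower, bmp16 at least 3.47-fold and gdf6b at least 1.20-fold, each against a floor of 3 fragments per chimera library. The ligand gdf10b was also at 0, but at its zebrafish level of 1.06 and 1.09 FPKM it would itself have stayed under that floor, and no fold is given. These 4 passed the minimum level only through the zebrafish libraries, and identical zeros leave no spread between chimeras, so their calls are given as a description. Through the zebrafish libraries alone bmp5, bmp3 and bmp6 passed as well, with chimera means of 0.0988, 0.285 and 0.574 FPKM. Their calls carry the same lean toward decreases. The ligands gdf6a and bmp6 fell without reaching 0 in all chimeras. The dorsal retina gene gdf6a went from 5.50 and 5.175 FPKM to 2.61, 2.98 and 1.47 (log2 difference -0.95, adjusted p = 0.0368), and its call was lost when chimera replicate 1 (adjusted p = 0.0646) or zebrafish replicate 1 or 2 (0.224 and 0.192) was left out, on the FPKM as deposited (0.0512), with a pseudocount of 0.1 (0.0598) and under quantile normalization (0.357). For bmp6 the values were 3.23 and 4.09 FPKM against 0, 0.309 and 1.41 (adjusted p = 0.0295), and the call was lost without zebrafish replicate 1 or 2 (0.192 and 0.274), without chimera replicate 1 or 2 (0.0539 and 0.0722), under quantile normalization (0.178) and with a pseudocount of 0.1 (0.1104). The remaining ligands did not pass the test. They were bmp2b, the ventral Bmp signal of early zebrafish embryos, at 8.09 and 7.13 FPKM against 4.93, 7.11 and 5.97 (adjusted p = 0.241), bmp7b (adjusted p = 0.442) and gdf11 (adjusted p = 0.208), a Gdf that patterns the body axis.

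Shares within a library do not depend on the scaling between libraries, and they differed between the groups as well. FPKM is per kilobase, so levels of different genes can be added. Over the 26 ligand records without cross-mapping, inhbb made up 8.50% and 8.36% of the summed ligand FPKM in the zebrafish libraries and 67.6%, 54.2% and 61.2% in the chimeras. All activin chains together held 11.6% ± 0.402 (SD, n = 2) in zebrafish embryos and 64.3% ± 6.83 (SD, n = 3) in the chimeras. Bmp ligands went from 45.5% ± 1.33 to 21.5% ± 5.30, and Gdf ligands from 43.0% ± 0.926 to 14.2% ± 4.74. Neither share overlapped between the groups, although 2 against 3 libraries cannot give an exact two-sided permutation p below 0.1. With bmp4 counted among the ligands, in spite of its cross-mapping, the inhbb share was 7.48% and 58.5%. The sum of all ligands was 89.7 ± 0.236 FPKM in zebrafish embryos and 60.4 ± 4.53 in the chimeras, and without inhbb it was 82.1 ± 0.303 and 23.7 ± 5.85. No record on the medaka genome carries the symbol inhbb, and only 14683 of 20459 records there have a symbol. The activin chains there were inhbaa, inhbab and INHBE, so activin shares on both genomes cover unlike sets of genes. Over the 20 medaka ligand records without cross-mapping, the activin chains held 0.856% ± 0.439 of ligand FPKM in medaka embryos and 0.795% ± 0.131 in the chimeras, Bmp ligands 66.9% and 64.3%, and Gdf ligands 32.3% and 34.9%. That leaves out bmp4, bmp2 and gdf10b, the last of them the most abundant medaka ligand. With these 3 counted, a version chosen after seeing the data, the activin chains held 0.460% and 0.423%, Bmp ligands 58.5% ± 0.0272 and 54.3% ± 0.8503, and Gdf ligands 41.1% ± 0.265 and 45.3% ± 0.793.

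**Figure D2:**
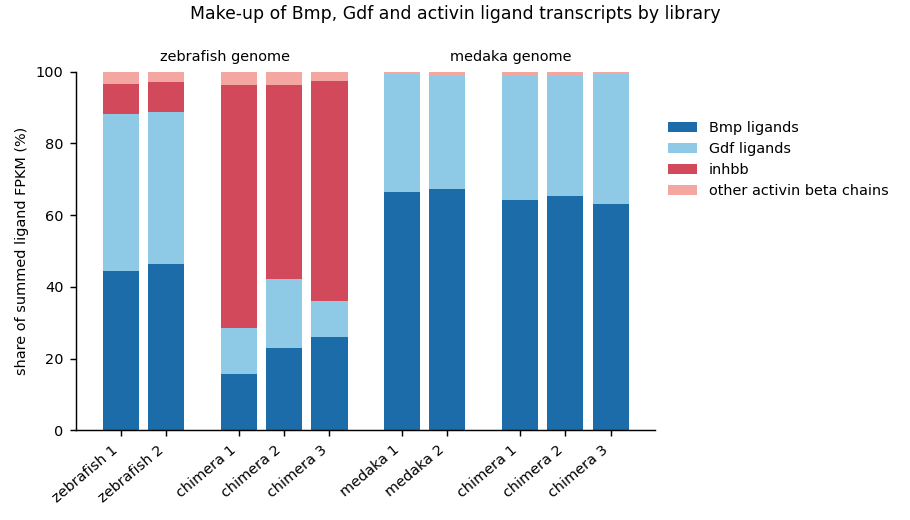
Share of the summed ligand FPKM (%) taken by Bmp ligands, Gdf ligands, inhbb and the other activin beta chains in each library, with zebrafish-genome values on the left and medaka-genome values on the right; each bar is 1 library. The inhbb part is 8.36% and 8.50% in zebrafish embryos and 54.2% to 67.6% in the chimeras, while activin chains hold 0.545% to 1.17% in the medaka-genome bars, from which the cross-mapped bmp4, bmp2 and gdf10b are left out. No medaka record carries the symbol inhbb, so the activin parts of both genomes cover unlike sets of genes.

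Most receptor transcripts had a higher mean in the chimeras, with few calls. Of 15 tested receptors 2 rose (13.3%) and 1 fell (6.67%), against 10.1% and 33.2% of all tested genes. The median log2 difference was 0.30. In 13 of the 15 the chimera mean was above the zebrafish mean, against 40.5% of all tested genes. Among those 13 are 2 records that share the symbol bmpr1bb and lie 26378 bases apart on chromosome 10. They may not be separate genes. The zebrafish libraries were themselves uneven here, with replicate 2 above replicate 1 in 14 of the 15. Quantile normalization gave 7 higher and 1 lower, where 33.4% and 21.2% of all tested genes were called higher and lower. Summed receptor FPKM was 170 ± 16.0 (SD, n = 2) in zebrafish embryos and 221 ± 8.19 (SD, n = 3) in the chimeras.

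The activin and Nodal type I receptor acvr1ba, also known as Alk4, was the most abundant member in the chimeras and the 3rd in zebrafish embryos. It measured 32.1 and 29.6 FPKM in zebrafish embryos and 48.4, 47.3 and 52.9 FPKM in the chimeras, a ratio of 1.61 (log2 difference 0.67 ± 0.10, limma, adjusted p = 0.00461). The groups did not overlap, and 573 chimera fragments were behind the values. The call was lost when medaka libraries were put in the same fit (adjusted p = 0.128). Its duplicate acvr1bb was at 14.3 and 20.7 FPKM against 23.1, 21.0 and 30.9 and was not called (adjusted p = 0.166). The type II Bmp receptor bmpr2b rose from 1.97 and 3.72 FPKM to 8.04, 9.86 and 8.26, a ratio of 3.06 (log2 difference 1.37 ± 0.25, adjusted p = 0.0103), and was called in each of the 15 alternatives in which it was tested. Its duplicate bmpr2a was at 2.62 and 4.22 FPKM against 4.79, 7.39 and 4.82 and was not called (adjusted p = 0.145).

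The receptor that fell was acvrl1, or Alk1, the type I receptor of vessel endothelium. It measured 6.66 and 6.71 FPKM in zebrafish embryos and 0.251, 0 and 0 FPKM in the chimeras, where less than 1 fragment was implied against 69.3 at the zebrafish level (log2 difference -2.83 ± 0.16, adjusted p = 0.000178). All 16 alternatives kept the call. With a chimera mean of 0.0836 FPKM, acvrl1 passed the minimum level only through the zebrafish libraries. The genes acvr1ba and acvrl1 are neighbours on chromosome 23: acvr1ba spans 27873978 to 27896379, acvrl1 27909106 to 27930563 (danRer10), and 12726 bases lie between them. These neighbours moved in opposite directions. The remaining receptors were not called in either direction. Among them acvr1l (Alk8) held 24.8 and 25.2 FPKM against 34.9, 37.0 and 25.5, where chimera replicate 3 lay just above the zebrafish libraries, and bmpr1aa (Alk3) 21.0 and 21.2 FPKM against 30.002, 23.5 and 29.8. Without chimera replicate 3 acvr1l was called higher (adjusted p = 0.0237), and without chimera replicate 2 bmpr1aa was (0.0173).

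Smads carry the signal from the receptors into the nucleus. Of 8 tested donor Smads, 2 rose (25%), 2 fell (25%) and 4 were not called. Of all tested genes 10.1% rose and 33.2% fell. In the Bmp branch, smad5 was at 27.5 and 27.1 FPKM in zebrafish embryos and at 25.6, 26.9 and 22.5 in the chimeras (log2 difference -0.13 ± 0.11, adjusted p = 0.415). Its relative smad1 was at 14.2 and 13.6 FPKM against 8.29, 9.16 and 11.2 (log2 difference -0.51 ± 0.16, adjusted p = 0.0565). All chimeras were below both zebrafish libraries in smad1, and the difference passed the threshold without chimera replicate 3 (0.0304) and with all 3 groups in the fit (0.0236). The third Smad of that branch, smad9, fell from 5.79 and 5.81 FPKM to 1.49, 1.86 and 1.68 (log2 difference -1.35 ± 0.15, adjusted p = 0.00157), a call kept in all 16 alternatives. It rests on 3.00 implied chimera fragments, against 37.0 at the zebrafish level. The FPKM fell by a smaller factor than that count. The implied number is too low where isoforms widen the confidence limits, and it may be too low here.

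In the activin branch, smad3b fell from 14.9 and 17.5 FPKM to 10.01, 9.79 and 7.91 (log2 difference -0.75 ± 0.16, adjusted p = 0.0171). That call was lost without zebrafish replicate 1 or 2 (adjusted p = 0.0764 and 0.116) and under quantile normalization (0.0517). Its duplicate smad3a was at 9.99 and 9.57 FPKM against 10.5, 6.76 and 9.29 (adjusted p = 0.594), with overlapping groups. The common Smads rose slightly. For smad4a the values were 9.17 and 9.81 FPKM against 13.0, 15.7 and 12.9 (log2 difference 0.50 ± 0.14, adjusted p = 0.0386), and for the record SMAD4 (1 of many) 3.11 and 5.15 against 6.86, 8.01 and 7.20 (log2 difference 0.73 ± 0.22, adjusted p = 0.0497). The smad4a call was lost without chimera replicate 1 or 3 (0.0547 and 0.0546) and without zebrafish replicate 1 or 2 (0.190 and 0.136). That of SMAD4 (1 of many) was lost without zebrafish replicate 1 (0.134) and without any 1 chimera (0.0813, 0.0969 and 0.0922). It was also lost on the FPKM as deposited (0.0504), with no minimum level (0.0560), with the other species' mean under 0.1 FPKM (0.0502) and with a pseudocount of 0.1 (0.0630). The inhibitory smad6a was steady at 13.97 and 13.4 FPKM against 14.7, 14.9 and 15.4 (adjusted p = 0.366).

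The secreted antagonists were lower in the mean in 6 of 6 tested, against 59.5% of all tested genes, but 1 passed the test, and under quantile normalization 3 of the 6 turned positive with no call. That 1 was grem2b, a gremlin, at 8.28 and 7.93 FPKM in zebrafish embryos and at 2.42, 2.01 and 0 in the chimeras (log2 difference -2.06 ± 0.59, adjusted p = 0.0456). The call rests on 4.99 chimera fragments and was lost without zebrafish replicate 1 or 2 (0.278 and 0.259) and without chimera replicate 2 (0.0595). It was also lost on the FPKM as deposited (0.0529), without a minimum level (0.0612), with a pseudocount of 0.1 (0.181), without the trend and robust options (0.0503) and under quantile normalization (0.112). The noggin genes nog1, nog2 and nog3 were not called (adjusted p = 0.237, 0.165 and 0.0523). Follistatin, fsta, which binds activin, was at 10.6 and 10.7 FPKM against 8.51, 9.90 and 5.57 (adjusted p = 0.256).

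All 3 tested follistatin-like genes fell, where 33.2% of all tested genes did. The record fstl4 was too low to be tested, at a mean of 0.655 FPKM in zebrafish embryos and 0.871 in the chimeras. The secreted glycoprotein gene fstl1a (chromosome 1, 46768491 to 46794128, danRer10) went from 46.1 and 40.5 FPKM to 3.66, 3.05 and 1.83. This was the largest decrease of any tested member on the log2(FPKM + 1) scale (-3.55 ± 0.25, limma, adjusted p = 0.000356). That scale understates the change of low genes. By ratio of means bmp5, acvrl1 and bmp3 fell further than fstl1a, on few chimera fragments. The duplicate of fstl1a, fstl1b, was the most abundant member of the family in zebrafish embryos. It went from 61.0 and 58.3 FPKM to 14.9, 10.8 and 13.0 (log2 difference -2.14 ± 0.15, adjusted p = 0.00038). Every chimera was below both zebrafish libraries for each, and both calls were kept in every alternative in which the gene was tested, 16 for fstl1a and 15 for fstl1b. For fstl5 the values were 6.23 and 5.58 FPKM against 2.48, 0.695 and 1.96 (adjusted p = 0.0297), which at the zebrafish level would have stayed under the floor of 3 fragments per chimera. Its call was lost without zebrafish replicate 1 or 2 (0.225 and 0.190), without chimera replicate 3 (0.0563), with a pseudocount of 0.1 (0.0670) and under quantile normalization (0.104). The protease gene bmp1a, whose product trims procollagen and the Bmp antagonist chordin, fell from 9.82 and 11.5 FPKM to 2.85, 3.00 and 2.87 (log2 difference -1.57 ± 0.14, adjusted p = 0.000732), in all 16 alternatives. The kinase gene bmp2k was not called (adjusted p = 0.655).

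**Figure D3:**
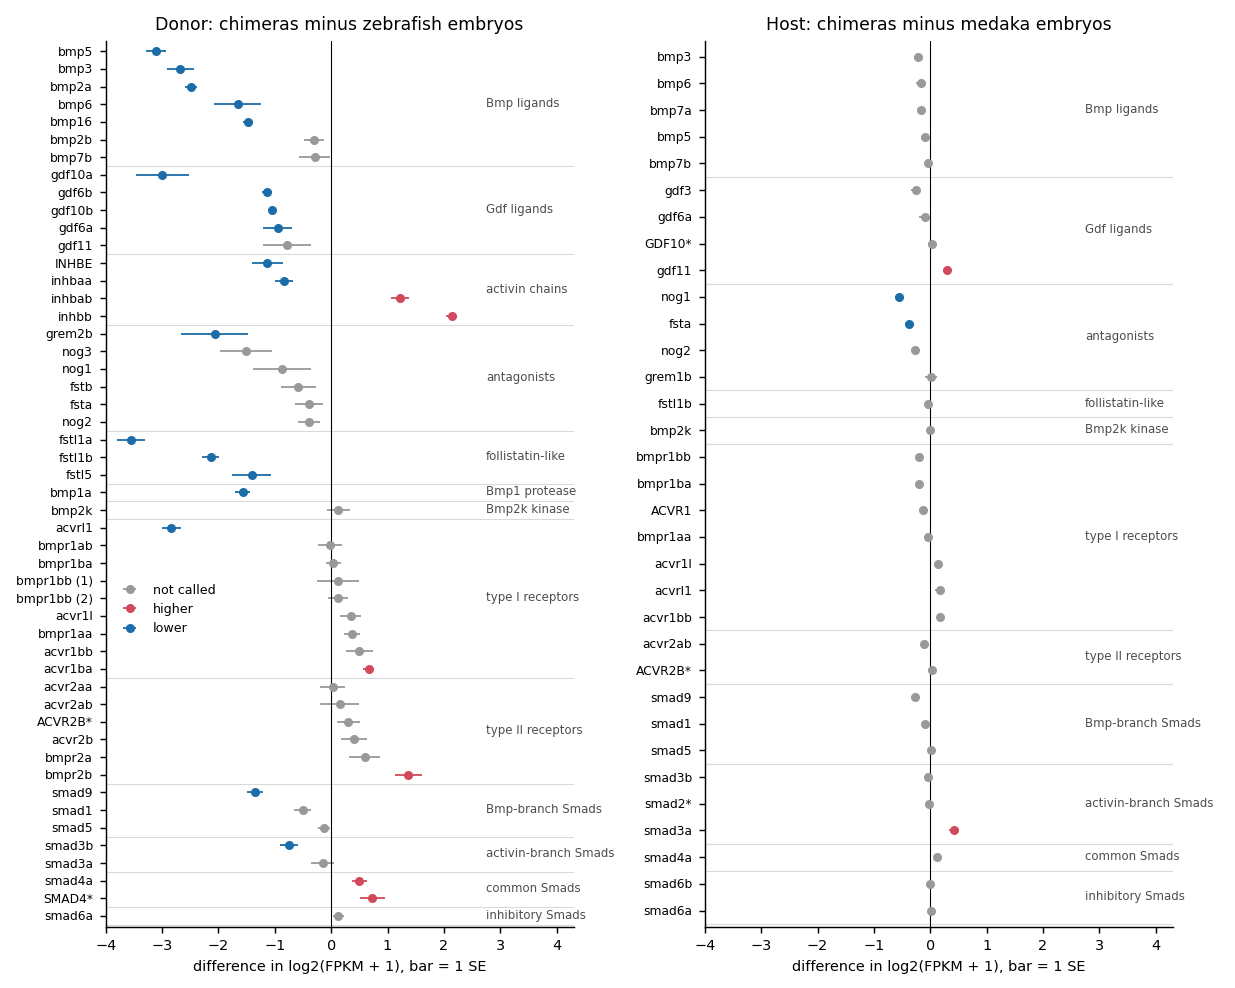
Difference in log2(FPKM + 1) of each tested member, chimeras minus zebrafish embryos on the zebrafish genome (left) and chimeras minus medaka embryos on the medaka genome (right), with bars of 1 SE; red rose, blue fell and grey was not called at an adjusted p under 0.05. Donor differences run from -3.55 to 2.14, whereas host differences stay between -0.56 and 0.42.

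Duplicate genes were compared within each library, where scaling has no effect. Of 11 pairs of zebrafish duplicates among the tested members, 7 had a ratio in every library. In 4 of those the groups did not overlap. Of single tested genes 65.4% did not overlap, but that share is of levels and not of ratios. No such share was worked out over all duplicate pairs. The ratio of fstl1a to fstl1b was 0.757 and 0.694 in zebrafish embryos and 0.246, 0.282 and 0.141 in the chimeras, so the fstl1a part of the pair was smaller there. The ratio of bmpr2a to bmpr2b turned over, from 1.33 and 1.14 to 0.595, 0.749 and 0.583. The ratio of smad3a to smad3b went from 0.673 and 0.546 to 1.05, 0.690 and 1.17, with chimera replicate 2 just above zebrafish replicate 1. The pair bmpr1aa and bmpr1ab stood at 2.43 and 2.08 against 3.60, 3.01 and 2.50. For inhbaa and inhbab, chimera replicate 3 had no ratio, because inhbaa was at 0 there. The values were 10.9 and 10.2 in zebrafish embryos and 0.0788 and 0.315 in the other chimeras. Those chimera ratios rest on 1 and 1.99 inhbaa fragments. The minimum level was met by inhbaa only through the zebrafish libraries and by inhbab only through the chimeras. That filter itself favours such a turn, so the ratios are given as a description.

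**Figure D4:**
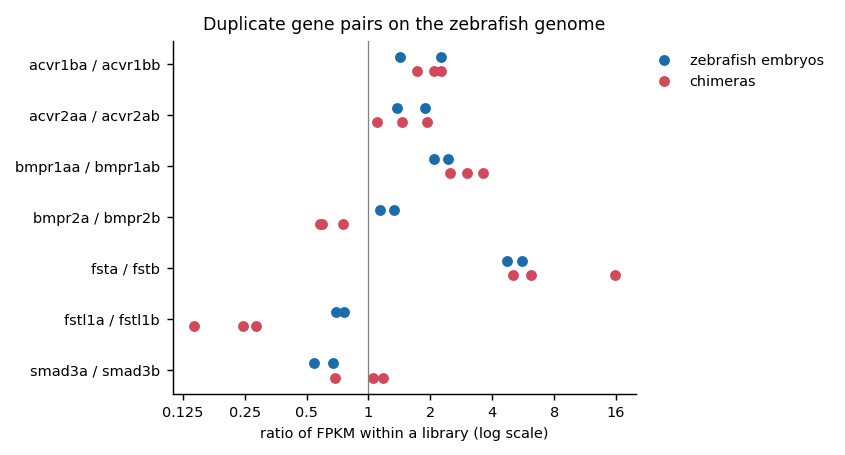
Ratio of FPKM between the named duplicate genes within each library on the zebrafish genome (log axis), for the 7 pairs with a ratio in every library; blue points are 2 zebrafish and red points 3 chimera libraries. The fstl1a to fstl1b ratio is 0.141 to 0.282 in the chimeras and 0.694 and 0.757 in zebrafish embryos, and the bmpr2a to bmpr2b ratio lies below 1 in every chimera and above 1 in both zebrafish libraries.

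Other genes of the pathway were read from a list of 105 symbols for co-receptors, further antagonists, Tgf-beta ligands, Smad partners and common target genes. On the zebrafish genome 85 records matched and 56 were tested, of which 3 rose (5.36%) and 30 fell (53.6%), against 10.1% and 33.2% of all tested genes, with a median log2 difference of -0.74, or -0.68 with genes at 0 in every chimera at the floor. Quantile normalization gave 10 higher and 20 lower, and 19 and 18 fell without zebrafish replicate 1 and 2. The target gene tbx2b, a T-box factor of the dorsal retina, rose from 22.5 and 23.45 FPKM to 104, 124 and 120 (log2 difference 2.28 ± 0.10, adjusted p = 0.000101). The AP-1 gene junbb rose from 8.12 and 7.09 FPKM to 23.0, 30.4 and 26.4 (log2 difference 1.68, adjusted p = 0.000952). ZNF423, a zinc finger partner of Bmp Smads, rose from 13.3 and 15.5 FPKM to 25.3, 29.99 and 22.3 (log2 difference 0.80, adjusted p = 0.0155).

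The decreases included both antagonists and targets. The antagonist gene sost was at 8.94 and 8.46 FPKM in zebrafish embryos and at 0 in every chimera, at least 12.7-fold lower. The protease gene htra1a was at 5.70 and 5.21 FPKM and also at 0, at least 7.22-fold lower. The Tgf-beta receptor gene tgfbr2 was at 8.92 and 8.25 FPKM against 0, 0.324 and 0, and the Bmp-binding bmper at 7.28 and 8.23 against 0, 0.335 and 0. The target gene msx2b fell from 10.7 and 10.7 FPKM to 0.764, 0.476 and 0.859 (log2 difference -2.79), and the Smad inhibitor tob1b from 26.9 and 22.4 to 2.57, 2.56 and 3.18 (-2.77). By limma these 6 had adjusted p from 9e-05 to 0.000271. All of them except tob1b were below 1 FPKM in every chimera and passed the minimum level only through the zebrafish libraries. For sost and htra1a identical zeros also leave no spread between chimeras. The calls other than that of tob1b are therefore given as a description.

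The host part of the chimeras stayed close to medaka embryos. On the medaka genome 33 of the 57 records were tested, 18 were too low and 6 were set aside for reads of zebrafish origin. Of the 33, 2 rose (6.06%) and 2 fell (6.06%), against 2.7% and 3.19% of 13722 tested genes. The groups did not overlap for 18 members (54.5%), against 44.6% of all genes. The median log2 difference was -0.04 against -0.00 for all genes, and 30 of the 33 differed by less than 0.3. Each of these calls was lost when either medaka replicate or chimera replicate 3 was left out, and such fits have fewer libraries to estimate the spread. In those fits the log2 differences kept their sign. They ran from -0.60 to -0.52 for nog1, -0.44 to -0.33 for fsta, 0.30 to 0.53 for smad3a and 0.24 to 0.35 for gdf11.

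The antagonist nog1 fell from 12.0 and 11.2 FPKM in medaka embryos to 7.29, 8.18 and 7.29 in the chimeras (log2 difference -0.56 ± 0.07, limma, adjusted p = 0.0116, and 0.0516 to 0.101 without those libraries). It showed the largest host difference, and no chimera reached the medaka range. Follistatin, fsta, fell from 13.2 and 14.3 FPKM to 10.3, 9.93 and 10.7 (log2 difference -0.38 ± 0.06, adjusted p = 0.0209, and 0.0664 to 0.124 without them). The activin-branch smad3a rose from 7.55 and 6.30 FPKM to 9.56, 9.01 and 10.1 (log2 difference 0.42 ± 0.08, adjusted p = 0.0447). Leaving out any 1 library ended that call (adjusted p = 0.0501 to 0.169), as did no minimum level (0.0683) and a fit without the trend and robust options (0.0702). The ligand gdf11 rose from 6.15 and 5.63 FPKM to 7.23, 7.67 and 7.45 (log2 difference 0.29 ± 0.06, adjusted p = 0.0436). Its call likewise ended without any 1 library (0.0609 to 0.175), with no minimum level (0.0615), without those options (0.0570) and on the FPKM as deposited (0.0698). Lens markers of the medaka genome summed to 226 to 237 FPKM in the chimeras against 109 to 126 in medaka embryos, and epidermis markers to 758 to 6927 against 6648 to 7044. Their part in these calls was not tested.

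Other host members were not called. In the Bmp branch, smad9 was at 14.6 and 12.4 FPKM against 11.0, 11.3 and 10.9 (adjusted p = 0.0918), smad1 at 17.5 and 17.5 against 15.5, 17.4 and 16.1, and smad5 at 28.9 and 29.3 against 29.8, 29.5 and 28.7. The steadiest of these, smad5, differed by 0.01 on the log2 scale. In the activin branch, smad3b was at 3.37 and 3.68 FPKM against 3.56, 3.26 and 3.36, and a record of smad2 at 12.4 and 12.2 against 12.9, 11.0 and 12.6. The common smad4a was at 19.3 and 20.4 FPKM against 22.1, 20.7 and 21.9. The inhibitory smad6a was at 9.81 and 10.7 FPKM against 10.5, 10.8 and 9.69, and smad6b at 31.7 and 28.2 against 29.2, 31.7 and 28.7. Both inhibitory Smads overlapped between groups.

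Of host receptors, acvr1bb was at 21.3 and 21.1 FPKM against 23.3, 25.3 and 23.5 (adjusted p = 0.117), and acvrl1 at 4.89 and 4.69 against 5.52, 4.95 and 6.05 (adjusted p = 0.278). The Bmp receptors bmpr1ba, at 11.1 and 10.2 FPKM against 8.99, 9.47 and 8.91, and bmpr1bb, at 9.74 and 9.10 against 8.26, 7.97 and 7.88, were lower in every chimera without passing the test (adjusted p = 0.101 and 0.0843). The receptors acvr1l and ACVR1 were at 19.1 and 18.1 FPKM against 19.99, 21.7 and 19.8, and at 7.53 and 6.53 against 6.62, 6.54 and 5.98. Of host ligands, bmp3 was at 8.75 and 8.83 FPKM against 7.05, 7.997 and 7.24 (adjusted p = 0.106), bmp6 at 9.94 and 8.29 against 7.56, 8.73 and 7.80, and nog2, an antagonist, at 12.4 and 12.2 against 9.18, 11.1 and 9.92 (adjusted p = 0.107). The most abundant host member was fstl1b, at 159 and 162 FPKM in medaka embryos and 152 to 164 in the chimeras.

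Of the other pathway genes on the medaka genome, 47 of 53 records were tested, 9 fell (19.1%) and 0 rose by limma, against 3.19% and 2.7% of all tested genes. Of the 47, 4 had a higher value at an unadjusted p under 0.05. The fit with all 3 groups gave 3 higher. The largest decreases at a level of at least 5 FPKM were in the ventral homeobox gene vox, from 66.8 and 75.3 FPKM to 51.6, 49.9 and 53.0 (log2 difference -0.45, adjusted p = 0.0178), and in the Nodal co-receptor gene tdgf1, from 6.08 and 5.35 to 4.46, 3.80 and 4.13 (-0.39, adjusted p = 0.0499). The Bmp co-receptor gene rgmd, the target gene msx1a and the Smad inhibitor tob1a fell by 0.26, 0.23 and 0.23. Below 5 FPKM, foxh1, szl, junba and admp fell by 0.70, 0.64, 0.58 and 0.46 (limma, adjusted p = 0.0141, 0.0441, 0.0202 and 0.0256). Of these, foxh1 passed the minimum level only through the medaka libraries, with means of 1.08 FPKM there and 0.283 in the chimeras. No pathway gene was called without medaka replicate 1, medaka replicate 2 or chimera replicate 3.

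Donor and host changes were set against each other for 24 members that were tested on both genomes under the same symbol. Both changes share the chimera libraries. The main fit treats their values on both genomes as independent and pools the spread of donor and host values. The donor change was called below the host change in 8 of them (33.3%) and called above it in 0. Of 7983 matched genes 31.4% and 12.5% were so called (limma interaction, adjusted p under 0.05). Several members lay above it without a call, the furthest being bmpr1aa with a difference of 0.41. At an unadjusted p under 0.05, 2 were above it. The median difference was -0.28 against -0.17 over all matched genes. The 8 were bmp5, acvrl1, bmp3, fstl1b, bmp6, smad9, gdf6a and smad3b, with differences from -3.01 to -0.71. As a ligand pair, bmp5 and bmp3 fell in the donor by 3.11 and 2.68 and differed in the host by -0.10 and -0.22. The host decreases of nog1 and fsta stood beside donor differences of -0.87 and -0.40 that were not called, and the interaction was not called for either (adjusted p = 0.657 and 0.958). The host increases of smad3a and gdf11 met donor differences of -0.15 and -0.79, and the interaction was not called for either (adjusted p = 0.0746 and 0.0773). No medaka record under the symbols inhbb, bmpr2b or acvr1ba was tested, so their donor increases have no host value matched by symbol. Whether genes of the same symbol descend from the same gene was not checked. On the medaka genome the receptor record near acvrl1 is acvr1bb, whereas on the zebrafish genome it is acvr1ba.

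**Figure D5:**
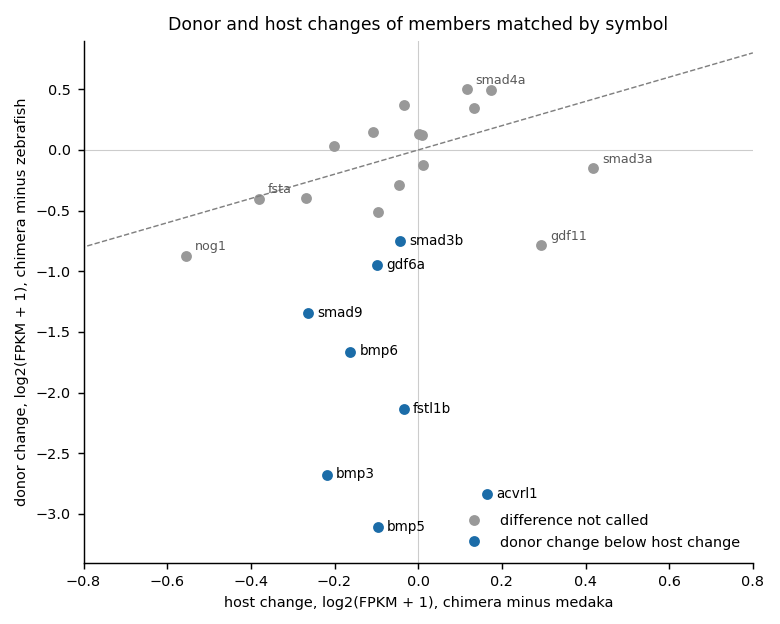
Donor change (chimeras minus zebrafish embryos) against host change (chimeras minus medaka embryos) in log2(FPKM + 1) for 24 members matched by symbol; each point is 1 gene, blue where the difference between both changes passed the test, and the dashed line marks equal change. The 8 blue genes fell in the donor by 0.75 to 3.11, while their host changes lie between -0.26 and 0.17.

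The 4 zebrafish members set aside for cross-mapping were bmp4, smad2, smad6b and smad7. For bmp4, an estimated 72.4% of the chimera fragments were the number expected from medaka RNA, and for smad2, smad6b and smad7 47.9%, 31.2% and 1.38%. Their values on the zebrafish genome are therefore mixtures, for smad7 only in small part. For smad2 they were 10.9 and 12.1 FPKM in zebrafish embryos and 25.3, 38.2 and 25.6 in the chimeras, for smad6b 12.6 and 11.9 against 5.57, 4.86 and 4.07, and for smad7 23.8 and 17.3 against 17.7, 15.9 and 16.03. For bmp4 the zebrafish libraries held 11.6 and 11.2 FPKM and the chimeras 3.24, 1.43 and 2.78. Medaka reads add to such chimera values. Without the filter, bmp4 and smad6b were called lower (limma, log2 differences -1.87 and -1.19, adjusted p = 0.00537 and 0.00368). In that fit smad2 was called higher (1.27, adjusted p = 0.00843) and smad7 was not called (-0.28, adjusted p = 0.236). On the medaka genome the estimated share was at most 0.0417% in any of the 6 members set aside, which include smad2 (1 of many) at 12.9 and 13.4 FPKM against 14.6, 12.4 and 14.3, and smad7 at 10.4 and 10.2 against 10.9, 10.8 and 10.4. Of these 6, bmp2 passed the threshold without the filter (log2 difference -0.34, adjusted p = 0.0469). The 19 zebrafish members below the minimum had means under 1 FPKM in both groups, and 14 of them, among them bmp10, gdf3 and nog5, were at 0 in every chimera. At their zebrafish level none of those 14 would have held 3 fragments per chimera library, so their loss was not detectable at this depth.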

How the data were processed

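Poly(A) RNA from 7 whole-embryo libraries was measured by sequencing, per the labels' protocols (Trizol extraction, NEBNext poly(A) module). The deposited values are FPKM with confidence limits. The submitters' processing notes name HISAT2, Cufflinks 2.2.1 and danRer10 for the authors' steps. Neither a HISAT2 version nor a medaka build is stated there. All 14 tables were used. Positions have their start counted from 1, and the table of gene names held 68 of the 73 zebrafish records.

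Fragments were worked out from FPKM and its upper confidence limit as (2 × FPKM / distance)², a number that is too low where isoforms widen the limits. Each library's FPKM was divided by its median ratio to the others and put on the scale log2(FPKM + 1), so log2 differences understate the change of low genes, while ratios are of mean rescaled FPKM. Genes had a valid Cufflinks status, a mean of at least 1 FPKM in either group and under 1 FPKM in the other species' libraries. limma 3.58.1 in R 4.3.3 (empirical Bayes with trend, robust) compared chimeras with zebrafish embryos, chimeras with medaka embryos, and the interaction over symbols unique in both genomes. Adjustment was by Benjamini-Hochberg over all tested genes, with a threshold of 0.05. Calls at fewer than 3 fragments rest on counting error that the fit does not see, and floors cover counting error only. Python 3.11.15, numpy 2.4.6, pandas 2.3.3 and matplotlib 3.10.9 made tables and figures. The tests were also run on simulated libraries with the same spread for all genes and few changed genes. The donor data differ from that setting, so no conclusion on the calls is drawn from that run.

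The members, gene lists and tests were chosen with earlier results of these data known. Named with values in every library are the Smads, members with at least 5 FPKM in the higher group among the 15 largest differences, and up to 6 called pathway genes in each direction. Values by library of other members were added after they were seen. Alternatives covered the pseudocount, the filters, the scaling, the fit and each library left out.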

Additional observations from a re-analysis of the deposited data

Results flagged for a closer look

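The donor and host changes of 8 members differed by the limma interaction test with Benjamini-Hochberg adjustment, and in each the donor change was below the host change. Over all matched genes 31.4% did so, against 33.3% of the 24 members. The fit pools the spread of donor values with that of the deeper host values. The p-values of the differences are therefore not surer than those of the donor changes (limma, adjusted p = 0.000179 for bmp5 and 0.000178 for acvrl1). The donor change minus the host change on the log2(FPKM + 1) scale was -3.01 ± 0.18 (SE) for bmp5 (adjusted p = 1.21e-06), -3.00 ± 0.19 for acvrl1 (1.29e-06), -2.46 ± 0.25 for bmp3 (3.6e-05) and -2.10 ± 0.16 for fstl1b (4.8e-06). It was -1.50 ± 0.44 for bmp6 (0.0204), -1.08 ± 0.15 for smad9 (0.000372), -0.85 ± 0.27 for gdf6a (0.0319) and -0.71 ± 0.18 for smad3b (0.011). The calls of bmp5, acvrl1, bmp3, fstl1b and smad9 were kept in every alternative in which they were tested, 17 for fstl1b and 18 for the others. That of bmp6 was lost with a pseudocount of 0.1 (adjusted p = 0.0907), under quantile normalization (0.235), and without chimera replicate 2 (0.0741), medaka replicate 2 (0.0799) or zebrafish replicate 2 (0.0825). That of gdf6a was lost with a pseudocount of 0.1 (0.0513), under quantile normalization (0.518), and without chimera replicate 1 (0.0606) or any 1 medaka or zebrafish library (0.0706 to 0.0974). That of smad3b was lost without medaka replicate 1 (0.0532). Implied zebrafish-genome fragments behind the chimera values, a number that can be too low, were about 1 or fewer for bmp5, bmp3, acvrl1 and bmp6. They were 3.00 for smad9, 28.9 for gdf6a, 91.0 for smad3b and 104 for fstl1b. On that genome bmp5, bmp3, acvrl1 and bmp6 passed the minimum level only through the zebrafish libraries.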

How the results depend on the processing

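No direction reversed in any called member. Of 25 called donor members 13 were called in every alternative in which they were tested, 7 of them in all 16. Of 8 called differences 5 were, 4 of them in all 18, and of 4 called host members 0 were. Of members not called, 10 in the donor, 6 in the host and 6 in the difference passed the threshold in some alternative. Donor members lower numbered 31 with no minimum level, 12 with a minimum of 5 FPKM and 9 under quantile normalization, and donor members higher 13 under quantile normalization and 3 with the other species' mean under 0.1 FPKM. Donor pathway genes lower numbered 19 with a minimum of 5 FPKM, and higher 10 under quantile normalization. Host members higher numbered 0 with no minimum level and without the trend or robust options and 1 on the FPKM as deposited, and host members lower 6 with all 3 groups in the fit. Host pathway genes lower numbered 5 with no minimum level, and 4 with a minimum of 5 FPKM, on the FPKM as deposited and without the trend or robust options, and higher 3 with all 3 groups in the fit. Donor changes called above the host change numbered 1 with no minimum level and 4 under quantile normalization, and those called below it 16 with no minimum level. A looser or stricter minimum changes which members are tested. The cause of the other shifts was not tested.

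With 1 library left out, donor members higher ranged from 3 to 6 and lower from 11 to 19, donor pathway genes higher from 2 to 4 and lower from 18 to 28, host members higher from 0 to 0 and lower from 0 to 4, and host pathway genes higher from 0 to 0 and lower from 0 to 8. Differences above the host change ranged from 0 to 1 and below it from 6 to 9. The chimera library as a random block gave 0 above and 8 below. Chimeras could not be paired with control libraries, because replicate numbers follow the order of deposit and tie no library of one group to a library of another. Depth limits the donor values: of 19 lower calls 11 rest on 3 or fewer implied chimera fragments, and gdf10b and fstl5 lie under the floor. The implied number is too low where isoforms widen the confidence limits.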
